A study of Mus musculus with 6 samples.

Results

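The NLRP3 inflammasome and interleukin-1 axis was followed through 10 genes, picked by symbol from the 18283 genes of a count table for mouse cortex. They were Nlrp3, Pycard, Nek7 and Txnip, which act in assembly of the complex, Casp1, Gsdmd, Il1b and Il18, which are its protease and that protease's substrates, and Il1r1 and Il1rap, the receptor chains for interleukin-1. All 10 had a row in the table. RNA had been sequenced from cortex of wild-type (WT) mice with the label 5-month, 3 libraries after AAV-GFP-GA and 3 after AAV-GFP. Both groups carry an adeno-associated viral vector and green fluorescent protein, GFP, and they differ by GA, the glycine-alanine repeat protein of C9orf72 disease, which AAV-GFP-GA adds to GFP. The sources used here do not give the promoter of the vectors, the age at injection or the number of animals behind a library, and p-values therefore measure the spread between these libraries, which may be technical. The title of the study names NLRP3 as a brake on poly-GA clearance through TREM2, and the comparison asks whether transcripts of the inflammasome and its cytokine axis differ with poly-GA.

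In microglia and other myeloid cells, NLRP3 works in a pair of steps. Inflammatory signals first raise the transcription of Nlrp3 and Il1b, a step called priming. A danger signal such as potassium efflux or an aggregated protein then lets NLRP3 bind NEK7 and gather the adaptor ASC, which recruits caspase-1. Caspase-1 cuts the precursors of interleukin-1β and interleukin-18 and opens gasdermin D, whose fragment forms the pores through which the cytokines leave. RNA levels report on priming and on the supply of parts, not on assembly or cleavage.

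The libraries held 16748754 to 17576017 expected counts, the read numbers per gene as the authors estimated them. As a check of the tissue label, 8 markers of cortical neurons summed to between 12500 and 13600 CPM, reads scaled to library size, in the 6 libraries. AAV-GFP replicate 3 had 19 reads over 14 Y-linked genes, and the other 5 had 2047 to 2293. AAV-GFP replicates 1 and 2 stood apart in 38 genes of intestinal epithelium, which summed to 39.2 and 34.8 CPM in them against 51.7 to 63.1 CPM in the other 4 libraries. Choroid plexus, the fluid-secreting tissue of the ventricles, was carried along in very unequal amounts, with its 6 markers summing to between 43.6 CPM in AAV-GFP-GA replicate 3 and 1130 CPM in AAV-GFP replicate 1.

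None of the 10 genes differed between the groups past the threshold. Of the 8 that had enough reads to be tested, 0 were higher and 0 lower by edgeR's quasi-likelihood test at an adjusted p of 0.05, where 0.0209% of all 14324 tested genes passed. At an unadjusted p of 0.05 the count was also 0 by edgeR and by DESeq2, and 1, Il1r1, by limma-voom, with 6.64%, 4.23% and 6.52% of all tested genes passing. The adjusted p by edgeR ran from 0.746 for Il1r1 to 0.988 for Il1rap. Log2 fold changes, AAV-GFP-GA over AAV-GFP, were negative for 6 and positive for 2, with a median of -0.07 and a median size of 0.10, beside -0.004 and 0.08 over all tested genes. In every one of the 10 genes the CPM of the groups overlapped, while 11.9% of tested genes had groups without overlap. The bulk tissue does not tell fewer expressing cells from less RNA per cell.

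**Figure D1:**
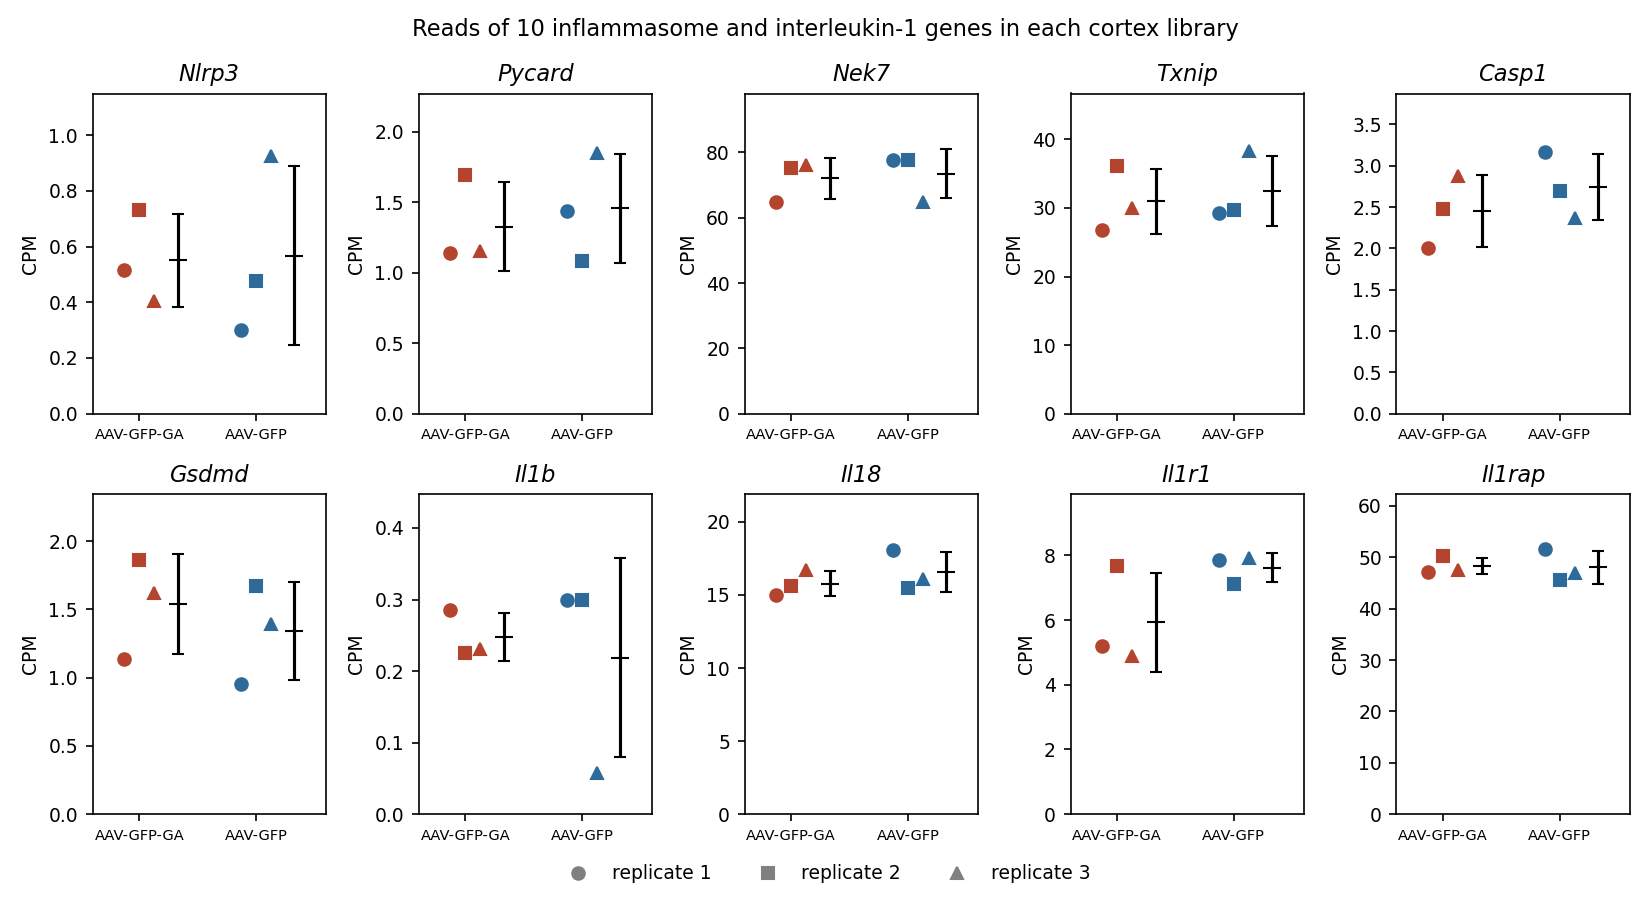
CPM of each of the 10 genes in the 3 AAV-GFP-GA libraries (red) and the 3 AAV-GFP libraries (blue), with the replicate number as the symbol and the mean ± SD in black; each panel has its own linear axis from 0. The groups overlap in all 10 panels, and Il1r1 shows the widest gap between means, 5.93 against 7.62 CPM.

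The members differed in level far more than the groups did. Set per kilobase of exon, as annotated in GENCODE M21, Il18 was the most abundant at 15.7 ± 1.07 CPM per kilobase (SD over the 6 libraries). Nek7 followed at 13.2 ± 1.13, Txnip at 11.2 ± 1.58 and Il1rap at 5.6 ± 0.261 CPM per kilobase. Casp1 came next at 1.74 ± 0.274, then Il1r1 at 1.11 ± 0.223, Gsdmd at 0.762 ± 0.181 and Pycard at 0.366 ± 0.0846 CPM per kilobase. Il1b and Nlrp3 closed the order at 0.172 ± 0.0678 and 0.138 ± 0.0566 CPM per kilobase. The neighbours Nek7 and Txnip, Il1r1 and Gsdmd, and Il1b and Nlrp3 overlapped in their ranges over the libraries. The cytokine precursor that many resting cells hold, Il18, was thus the top of this order, while the primed pair Il1b and Nlrp3 was the bottom. The order rests on the annotated lengths. For Pycard the exon length used, 3800 bases, is longer than its whole RefSeq range given further on, so its level per exon length may be too low. With coding length in place of exon length, Nek7 led at 80.3 ± 6.87 and Pycard, at 2.40 ± 0.555, stood just above Casp1, at 2.16 ± 0.340 CPM per kilobase, while Il1b and Nlrp3 were again the lowest.

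**Figure D2:**
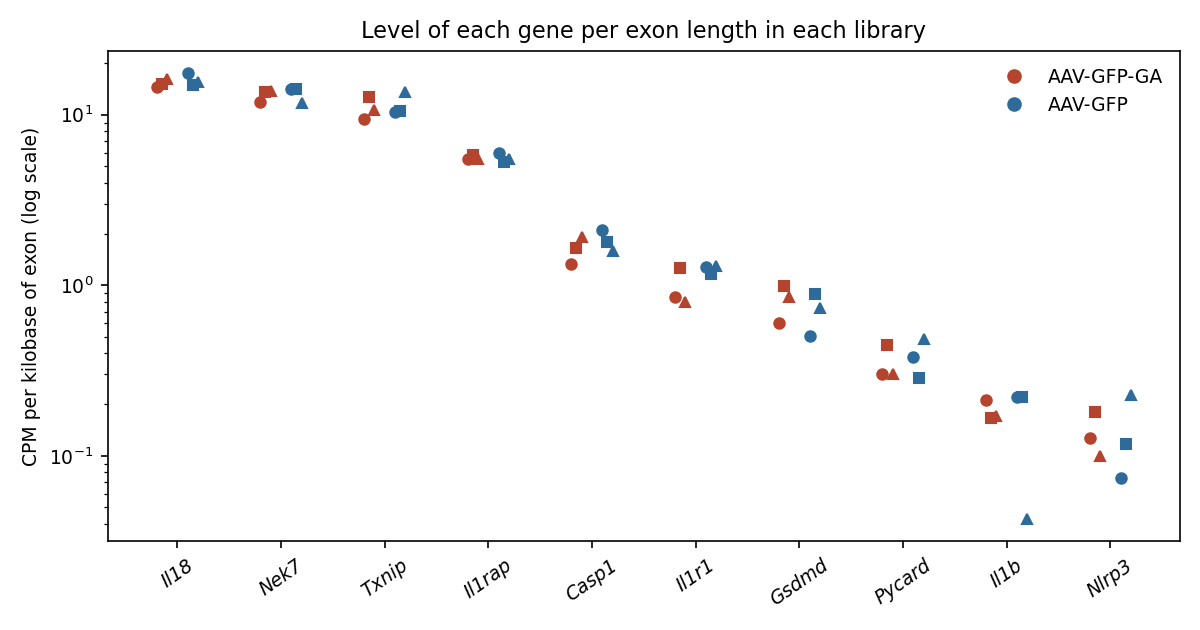
Level of each gene as CPM per kilobase of exon on a log axis, ordered by mean, with AAV-GFP-GA libraries in red and AAV-GFP libraries in blue (circle, square and triangle for replicates 1, 2 and 3). The genes span from 0.138 for Nlrp3 to 15.7 for Il18 on average, and the colours mix within each gene.

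Promoters of 9 of the 10 genes were found in the RefSeq promoter table for GRCm38.p6, the build also called mm10. The sequences of Txnip, an abundant member, and Il1b, a scarce one, are shown because the first is rich and the second poor in CpG pairs. Each covers the 250 bases before the start used in that table, which for Il1b lies just inside the gene range given further on. Capitals mark the letters TATAAA or TATATAA, known as boxes for the start of transcription, the letters CCAAT, and the letters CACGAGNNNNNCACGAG, searched on both strands, the last being the paired element by which glucose induces TXNIP.
Txnip, chr3:96557707-96557956, plus strand: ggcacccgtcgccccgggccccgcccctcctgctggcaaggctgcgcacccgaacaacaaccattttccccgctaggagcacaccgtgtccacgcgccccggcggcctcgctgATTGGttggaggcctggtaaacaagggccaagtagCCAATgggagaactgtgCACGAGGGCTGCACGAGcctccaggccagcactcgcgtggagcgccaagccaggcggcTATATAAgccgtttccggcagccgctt
Il1b, chr2:129371140-129371389, minus strand: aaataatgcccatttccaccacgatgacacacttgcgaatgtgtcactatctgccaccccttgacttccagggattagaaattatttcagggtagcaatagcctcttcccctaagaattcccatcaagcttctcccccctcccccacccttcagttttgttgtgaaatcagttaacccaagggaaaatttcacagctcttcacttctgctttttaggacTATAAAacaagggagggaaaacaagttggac
The Txnip window held 22 CpG pairs and the Il1b window 2, against a median of 6 over 32851 promoters. The paired element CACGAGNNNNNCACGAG began 85 bases before the Txnip start and was found in 1 of the 32851 windows, or 0.00304%, which was Txnip's. The letters searched are those known from TXNIP, so a hit there was set by their choice. Looser forms of the element were not searched in the other windows. The letters TATATAA, at 27 bases before the Txnip start, were in 3.04% of windows, those of TATAAA, at 31 bases before the Il1b start, in 12.4%, and CCAAT in 33.8%. A further search for GGGNNTTTCC, 1 form of the letters of NF-kappa-B sites, found it in 1.41% of windows and in none of the members'. Other forms of these sites, and bases outside the 250 of each window, were not searched. Il1rap with 30 CpG pairs and Nek7 with 17 resembled Txnip, and the windows of Nlrp3, Pycard, Casp1, Il18 and Il1r1 held 1 to 7. The 3 members with CpG-rich windows were among the 4 most abundant per exon length, and Il18, with 1 CpG pair, had the highest level. Whether CpG pairs go with level was not tested.

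Among the genes of assembly, the sensor itself was near the limit of detection. Nlrp3 (Entrez gene 216799, chromosome 11, 59541569 to 59566955, mm10, as for all positions here) was counted 9, 13 and 7 times in the poly-GA libraries, in the order of their replicate numbers as for all reads given here, and 5, 8 and 16 times in the controls. The lowest and the highest value both belonged to the control group, at 0.299 and 0.924 CPM. Nlrp3 fell below the expression filter of edgeR. Fitted with no filter, its 95% interval ran from 0.475-fold to 1.98-fold around a difference that did not pass the test. Pycard (Entrez gene 66824, chromosome 7, 127991373 to 127993867), which encodes the adaptor ASC, drew 20, 30 and 20 reads and, in the controls, 24, 18 and 32. The interval of its difference ran from 0.581-fold to 1.44-fold.

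Nek7 (Entrez gene 59125, chromosome 1, 138483837 to 138619757) encodes a mitotic kinase that also bridges NLRP3 subunits. Its reads numbered 1134, 1334 and 1321, and 1299, 1302 and 1122 in the controls. AAV-GFP-GA replicate 1 and AAV-GFP replicate 3 were the low libraries, at 64.9 and 64.8 CPM, and the other 4 lay between 75.2 and 77.8 CPM. The group means of 72.1 ± 6.25 and 73.4 ± 7.51 CPM (SD, n = 3 per group) gave an interval from 0.858-fold to 1.12-fold. Txnip (Entrez gene 56338, chromosome 3, 96557957 to 96561857) encodes thioredoxin-interacting protein, a redox regulator reported to bind NLRP3. Its reads numbered 468, 641 and 520, and 489, 497 and 663 in the controls. Here AAV-GFP replicate 3, at 38.3 CPM, and AAV-GFP-GA replicate 2, at 36.1 CPM, were the high libraries, above a range of 26.8 to 30.0 CPM in the others. The interval of the Txnip difference ran from 0.784-fold to 1.16-fold. The same pair of libraries, AAV-GFP replicate 3 first and AAV-GFP-GA replicate 2 second, was also highest for Nlrp3 and for Pycard, at 1.85 and 1.69 CPM. The pair holds 1 library of each group.

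Casp1 (Entrez gene 12362, chromosome 9, 5298517 to 5307281), the protease of the complex, drew 35, 44 and 50 reads, and 53, 45 and 41 in the controls. Its levels of 2.0 to 2.88 CPM and 2.37 to 3.17 CPM overlapped. The log2 fold change of -0.16 ± 0.22 (SE) had an interval from 0.642-fold to 1.25-fold. Gsdmd (Entrez gene 69146, chromosome 15, 75862144 to 75867408), which encodes the pore-former gasdermin D, drew 20, 33 and 28 reads, and 16, 28 and 24 in the controls. It was at 1.54 ± 0.364 and 1.34 ± 0.361 CPM (SD, n = 3 per group), a log2 fold change of 0.20 ± 0.30 (SE) with an interval from 0.729-fold to 1.81-fold. The adjusted p was 0.900 by edgeR.

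The 2 cytokine precursors differed in how well they could be measured. Il1b (Entrez gene 16176, chromosome 2, 129364569 to 129371164) drew 5, 4 and 4 reads, and 5, 5 and 1 in the controls, which is 24 reads in all 6 libraries. With no filter the interval of its difference was the widest of the 10 genes, from 0.414-fold to 3.12-fold. Il18 (Entrez gene 16173, chromosome 9, 50554700 to 50581841) drew 262, 276 and 290 reads, and 302, 260 and 279 in the controls. Its CPM ran from 15 to 16.7 with poly-GA and from 15.5 to 18.1 without, and AAV-GFP replicate 1 was the highest. The log2 fold change of -0.07 ± 0.09 (SE) had an interval from 0.824-fold to 1.10-fold and an adjusted p of 0.883 by edgeR. Il18 overlaps Bco2 in the RefSeq annotation, and since the strand setting of the counting is not given, reads of the shared stretch may have gone to either gene. Bco2 had 67 to 90 reads per library, fewer than Il18 in each. The ranges of Txnip, Il1b and Il1rap likewise overlap those of the noncoding genes Gm15441, Il1bos and Gm20319, which were not analysed here. Reads of any stretch they share in exons may have been counted for the members.

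Of the receptor chains, Il1r1 (Entrez gene 16177, chromosome 1, 40222480 to 40316201) encodes the ligand-binding one of the interleukin-1 receptor, which in brain is known from endothelium, choroid plexus, meningeal cells and a few neurons. Its reads numbered 91, 136 and 85, and 131, 119 and 137 in the controls. AAV-GFP-GA replicates 1 and 3 were low, at 5.21 and 4.90 CPM, while AAV-GFP-GA replicate 2, at 7.67 CPM, lay inside the control range of 7.11 to 7.91 CPM. The group means were 5.93 ± 1.51 and 7.62 ± 0.440 CPM (SD, n = 3 per group). The log2 fold change was -0.36 ± 0.17 (SE), from 0.596-fold to 1.02-fold, with unadjusted and adjusted p-values of 0.0626 and 0.746 by edgeR. By limma-voom the unadjusted p was 0.0442 and the adjusted p 0.745. Without AAV-GFP-GA replicate 2, the library inside the control range, the log2 fold change was -0.59 ± 0.15 (SE). The unadjusted p by edgeR was then 0.00313, where 4.43% of tested genes were under 0.05, and the adjusted p was 0.950. Leaving out any other single library gave log2 fold changes from -0.41 to -0.24 and unadjusted p-values from 0.0701 to 0.216 by edgeR.

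Choroid plexus markers moved with Il1r1 in part. Their sum was 465, 544 and 43.6 CPM in the poly-GA libraries and 1130, 237 and 582 CPM in the controls, so AAV-GFP-GA replicate 3 was lowest in both. All 6 choroid plexus markers were detected in each library, their median log2 fold change was -0.81, and 0 passed the test. Of 105 pathway and marker genes with at least 100 reads on average, the one most like Il1r1 over the 6 libraries was Clic6, a choroid plexus chloride channel gene (Pearson r = 0.862), followed by P2rx7 (r = 0.842). The 11 endothelial markers summed to 234, 277 and 241 CPM with poly-GA and 215, 189 and 226 CPM without, so each AAV-GFP-GA library was above each AAV-GFP library. The 6 meningeal fibroblast markers summed to 111, 147 and 110 CPM against 176, 111 and 108 CPM. The part of these tissues in the Il1r1 values was not tested.

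**Figure D3:**
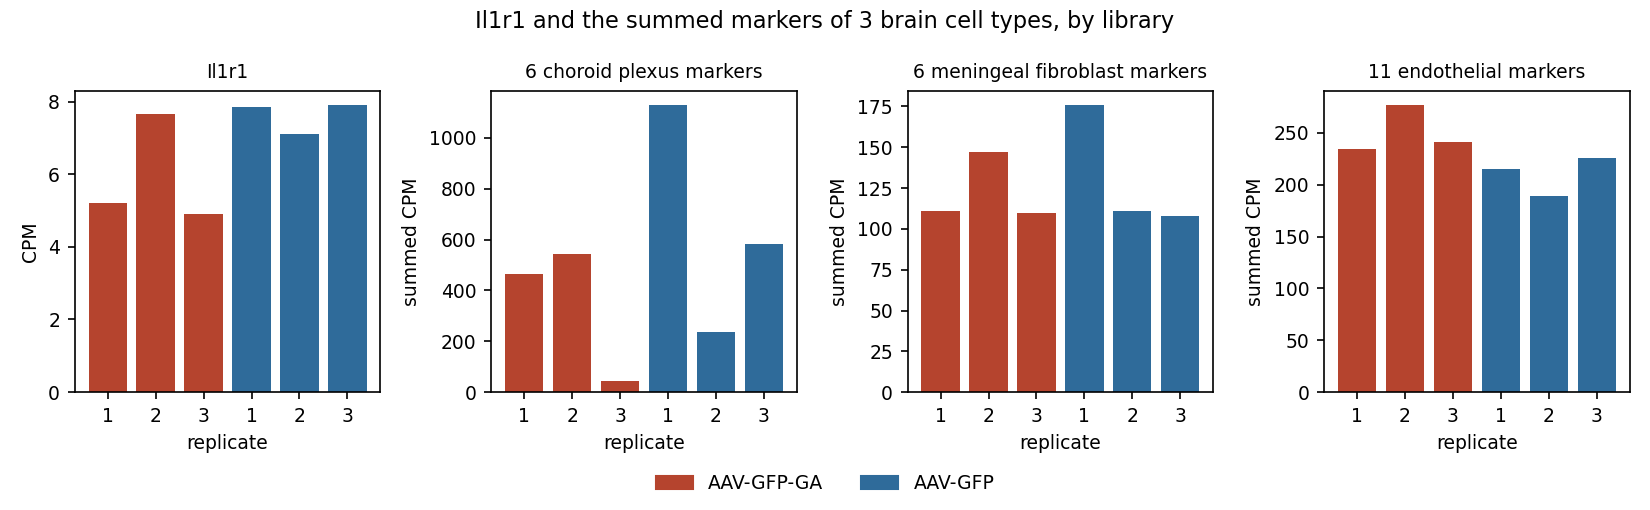
CPM of Il1r1 and summed CPM of choroid plexus, meningeal fibroblast and endothelial markers in each library, AAV-GFP-GA in red and AAV-GFP in blue, with bars from 0. Il1r1 and the choroid plexus sum are both lowest in AAV-GFP-GA replicate 3, at 4.90 and 43.6 CPM, while the endothelial sum is higher in each AAV-GFP-GA library than in any AAV-GFP library.

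Il1rap (Entrez gene 16180, chromosome 16, 26581509 to 26730128) encodes the accessory chain shared by the receptors for interleukin-1, interleukin-33 and interleukin-36, with a neuronal isoform in brain. Its reads numbered 825, 891 and 825, and 862, 762 and 814 in the controls. The levels of 48.3 ± 1.63 and 48.0 ± 3.14 CPM (SD, n = 3 per group) were the steadiest of the 10 genes, with the highest library 1.13 times the lowest. Its log2 fold change of 0.01 ± 0.07 (SE) had an interval from 0.903-fold to 1.12-fold. The counts are per gene, so the isoforms were not told apart.

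**Figure D4:**
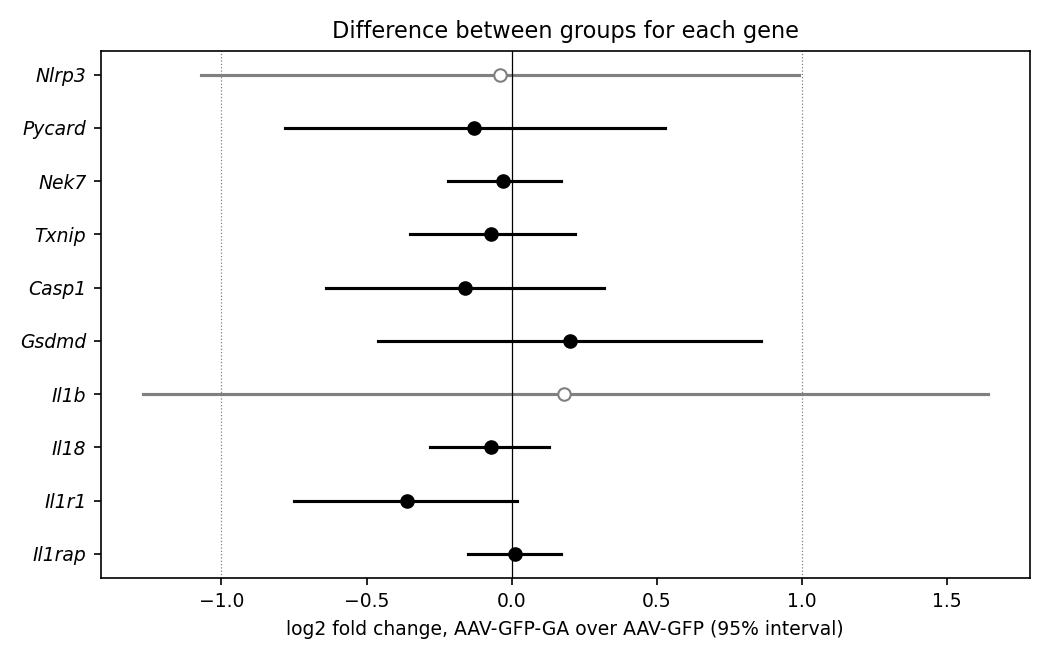
Log2 fold change of each gene, AAV-GFP-GA over AAV-GFP, with its 95% interval from edgeR; open grey symbols are Nlrp3 and Il1b, fitted with no filter on low counts, and dotted lines mark a 2-fold change. All 10 intervals include 0; Il1b has the widest and Il1rap, Nek7 and Il18 the narrowest.

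The intervals sort the genes by what these libraries can say. For 4 genes, Nek7, Txnip, Il18 and Il1rap, the 95% interval stayed inside 1.5-fold both up and down. For all 8 tested genes it stayed inside 2-fold. Il1b exceeded 2-fold upward and both Il1b and Nlrp3 exceeded it downward. With the split of the libraries by intestinal reads as a term in the fit, which sets the AAV-GFP-GA libraries against AAV-GFP replicate 3 alone, none passed, where 0.0628% of all tested genes did. Among the genes of assembly the log2 fold changes were then -0.73 ± 0.51 for Nlrp3, -0.47 ± 0.37 for Pycard, 0.15 ± 0.09 for Nek7 and -0.30 ± 0.14 for Txnip (SE). For the protease and its substrates they were 0.05 ± 0.31 for Casp1, 0.15 ± 0.43 for Gsdmd, 1.97 ± 1.10 for Il1b and -0.03 ± 0.13 for Il18 (SE), and for the receptor chains -0.41 ± 0.24 for Il1r1 and 0.04 ± 0.09 for Il1rap (SE). Each rests on 1 control library, and the intervals above are those of the fit without this term. That library was also the one with 19 reads over the Y-linked genes, against 2047 to 2111 in the AAV-GFP-GA libraries. In every value against AAV-GFP replicate 3 alone, here and below, poly-GA cannot be told apart from that difference.

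The genes most like the other members over the 6 libraries were sought by the same measure among the same 105 genes, of which 53.3% are markers of cell types. For Nek7 they were Gja1 (r = 0.916) and Aqp4 (r = 0.896), an astrocyte gap junction gene and water channel gene. Txnip was most like Mog, a myelin gene (r = 0.879), and Kcnk6, a potassium channel gene (r = 0.811). Il18 was most like Il1rapl2 (r = 0.873) and the meningeal transporter gene Slc6a13 (r = 0.867), and Il1rap was most like the fibroblast genes Col1a2 (r = 0.948) and Igf2 (r = 0.942). Among the 5 members with enough reads for this, the highest r between members was 0.617, for Txnip and Il1r1. With 6 libraries and so many genes searched, these values are descriptions of the libraries.

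Cells that could hold the axis were measured by their markers. The 15 microglial markers, all detected, summed to 575, 613 and 594 CPM with poly-GA and 537, 575 and 536 CPM without. The 7 markers of border macrophages summed to between 8.99 and 12.6 CPM, and 11 neutrophil markers to between 1.73 and 3.66 CPM. The 5 monocyte markers had 8 to 11 reads per library in all. Of these lists 15, 6, 1 and 0 genes had enough reads to be tested and 0 passed, so the monocyte and neutrophil lists are described by their sums alone.

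Around the members, 108 further genes of the pathway had a row, in 8 lists, and 82 were tested. None rose or fell past the threshold in edgeR. At an unadjusted p under 0.05 there were 6 higher and 2 lower, 9.76% against 6.64% of all tested genes, and the groups did not overlap for 15.9% against 11.9%. The median log2 fold change of the 82 genes was near 0, with 42 positive and 40 negative. With the library sets as a term in the fit, 27 of the 82 had the other sign. The share over all tested genes was not counted, so this number is not read as a trait of the pathway.

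Upstream of NLRP3, 22 triggers and regulators were tested, with a median log2 fold change of 0.04. At an unadjusted p under 0.05 by edgeR 3 were higher and 1 lower, 18.2% of the list against 6.64% of all tested genes. The groups did not overlap for 18.2% of the list against 11.9%. Clic1 and Clic4 encode chloride intracellular channel proteins that act in NLRP3 activation in macrophages. Clic1 had 173, 192 and 204 reads, and 133, 126 and 133 in the controls, and the groups did not overlap. Its log2 fold change was 0.49 ± 0.11 (SE) with edgeR p-values of 0.00123 unadjusted and 0.684 adjusted. Clic4 had 2070, 2456 and 2153 reads against 1803, 1838 and 1828, also with no overlap, a log2 fold change of 0.24 ± 0.07 (SE) and an adjusted p of 0.742. Against AAV-GFP replicate 3 alone these were 0.50 ± 0.16 and 0.27 ± 0.09 (SE). Clic1 and Clic4 are also expressed by endothelium, whose marker sum was higher in each AAV-GFP-GA library, and the part of endothelial RNA in their values was not tested. The other 2 at an unadjusted p under 0.05, given here though outside the rule for named genes, were Mark4, a kinase, with 0.22 ± 0.07 and the helicase gene Ddx3x with -0.15 ± 0.05 (SE). Against AAV-GFP replicate 3 alone they had 0.13 ± 0.08 and -0.18 ± 0.07 (SE). The most abundant members, Hsp90ab1, a chaperone of NLRP3, and Ctsb, the lysosomal protease cathepsin B, had -0.08 ± 0.05 and 0.07 ± 0.07 (SE), and 0.0045 ± 0.06 and -0.08 ± 0.06 against that library.

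Of the 7 tested priming genes, 5 were positive and 2 negative, with a median of 0.26. At an unadjusted p under 0.05 by edgeR there was 1, which is 14.3% of the list against 6.64% of all tested genes. The groups did not overlap for 14.3% of the list against 11.9%. Ticam1, which encodes TRIF, the adaptor of Toll-like receptors 3 and 4, had 141, 138 and 146 reads, and 80, 91 and 108 in the controls. All 3 AAV-GFP-GA libraries lay above all AAV-GFP libraries. The log2 fold change was 0.56 ± 0.14 (SE), with edgeR p-values of 0.00188 unadjusted and 0.742 adjusted, and 0.38 ± 0.18 against AAV-GFP replicate 3 alone. Tnfrsf1a, a receptor of tumour necrosis factor, had 0.26 ± 0.13, and 0.12 ± 0.17 (SE) against that library.

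Of 6 tested sensors of other inflammasomes, 1, Naip2, had an unadjusted p under 0.05 by edgeR, 16.7% against 6.64% of all tested genes. The groups did not overlap for 0% of the list against 11.9%. Naip2 averaged 1.73 ± 0.253 and 0.999 ± 0.460 CPM (SD, n = 3 per group). Its adjusted p by edgeR was 0.742. Its reads of 32, 34 and 25 overlapped with 15, 10 and 26, and its log2 fold change was 0.78 ± 0.33 and, against AAV-GFP replicate 3 alone, 0.20 ± 0.37 (SE). Naip genes are related copies, so the split of reads between them may be uncertain, which was not examined. Aim2, a sensor of cytosolic DNA, had -0.11 ± 0.19, and Naip5 -0.01 ± 0.29 (SE). Against that library they had 0.12 ± 0.26 and -0.28 ± 0.38 (SE). Among 5 tested caspases and cell death effectors, 0 had an unadjusted p under 0.05 by edgeR, against 6.64% of all tested genes. The groups did not overlap for 40.0% of this list, 1 gene higher and 1 lower, against 11.9%. Gsdme, another gasdermin, had 0.04 ± 0.13 and Ninj1, which ruptures the membrane of dying cells, 0.13 ± 0.14 (SE). With AAV-GFP replicate 3 as the control they had 0.14 ± 0.17 and -0.16 ± 0.14 (SE).

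**Figure D5:**
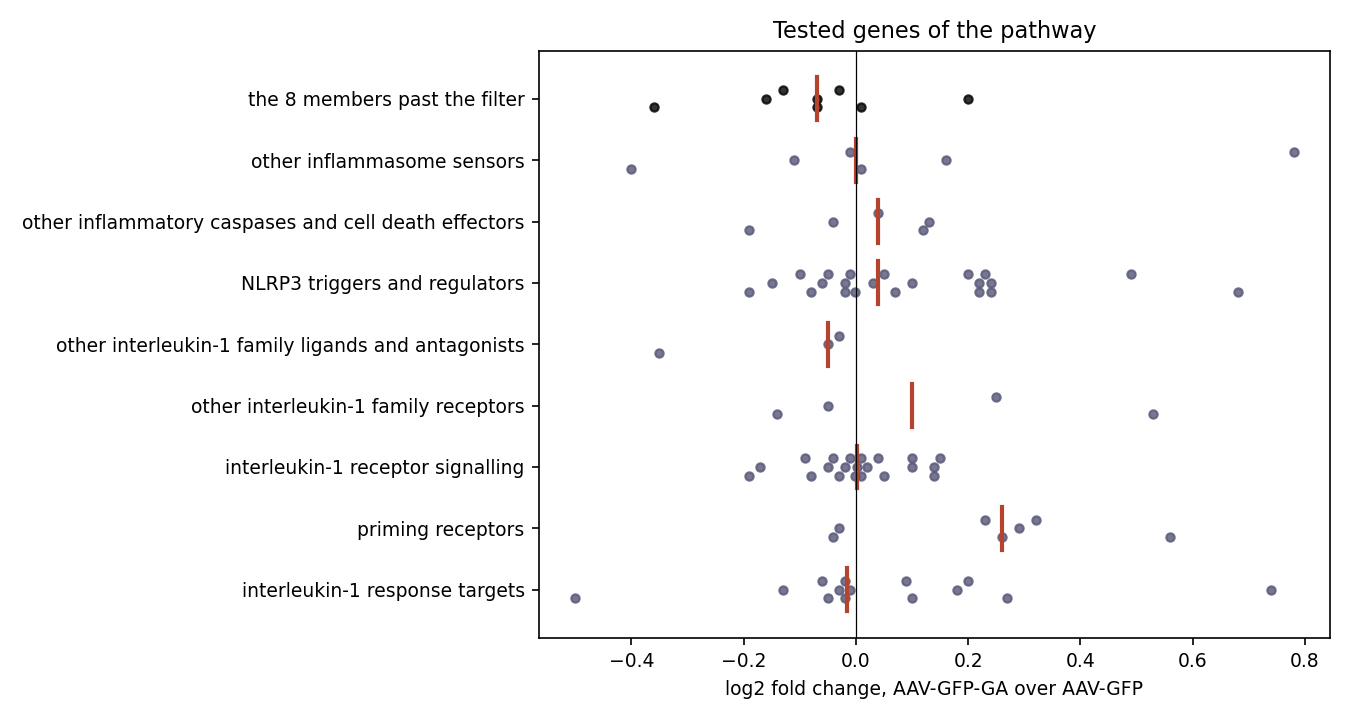
Log2 fold change of each tested gene, AAV-GFP-GA over AAV-GFP, in the 8 members past the filter and in the 8 surrounding lists, with the list's median in red. Most genes lie close to 0, and the priming receptors have the highest median, 0.26.

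In the wider interleukin-1 family, 3 ligands or antagonists and 4 receptors were tested and none passed, where 0.0209% of all tested genes did. An unadjusted p under 0.05 by edgeR was seen for 0% of each list against 6.64% of all tested genes. The groups did not overlap for 0% of the ligands or antagonists and 25.0% of the receptors, which was Il1rapl1, against 11.9%. Il33, an alarmin of astrocytes and oligodendrocytes, was well measured at 78.0 ± 4.42 against 79.8 ± 4.72 CPM (SD, n = 3 per group), a log2 fold change of -0.03 ± 0.07 (SE). Il18bp, the soluble inhibitor of interleukin-18, had 27, 35 and 31 reads against 34, 25 and 56, so that AAV-GFP replicate 3 was the highest. Its log2 fold change was -0.35 ± 0.29 and -0.87 ± 0.30 (SE) against that library alone. The receptor-like genes Il1rapl1 and Il1rapl2, which act at synapses, had 0.25 ± 0.15 and -0.05 ± 0.13 (SE), and the first had 0.39 ± 0.21 against that library.

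Below the receptor, all 21 signalling genes were tested, with 11 positive and 10 negative. An unadjusted p under 0.05 by edgeR was seen for 4.76% of them against 6.64% of all tested genes. The groups did not overlap for 14.3% against 11.9%. Traf6, the ubiquitin ligase that relays the signal of MYD88 and the IRAK kinases, had 436, 457 and 417 reads, and 481, 489 and 476 in the controls. The groups did not overlap, with a log2 fold change of -0.19 ± 0.07 (SE), and edgeR p-values of 0.0234 unadjusted and 0.742 adjusted. Its partners Ube2n and Ube2v1, which build ubiquitin chains, had -0.09 ± 0.06 and 0.02 ± 0.06 (SE), and -0.02 ± 0.07 and -0.05 ± 0.06 against AAV-GFP replicate 3 alone.

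Genes that interleukin-1 induces gave 14 tested genes, 6 positive and 8 negative. An unadjusted p under 0.05 by edgeR was seen for 7.14% of them against 6.64% of all tested genes. The groups did not overlap for 14.3% against 11.9%. Nfkb2, a subunit of NF-kappa-B, had 45, 65 and 59 reads against 25, 32 and 41 without overlap. Its log2 fold change was 0.74 ± 0.24 (SE), with edgeR p-values of 0.0101 unadjusted and 0.742 adjusted, and 0.44 ± 0.31 against AAV-GFP replicate 3 alone. The well-measured targets Vcam1, an endothelial adhesion molecule, and Sod2, the mitochondrial superoxide dismutase, had -0.06 ± 0.09 and -0.05 ± 0.07 (SE), and 0.12 ± 0.09 and 0.10 ± 0.06 against that library.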

How the data were processed

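Trizol extraction and BGI library preparation are given per the labels' protocols. Bowtie2 2.2.5, RSEM 1.2.12 and mm10 are listed, without roles, in the submitters' processing notes. The authors deposited expected counts per gene, which were not scaled to depth: 7.32% to 7.81% of values in a library were not whole. A row that named no gene was left out. Counts were rounded to whole numbers, filtered with filterByExpr of edgeR 4.0.16 (R 4.3.3), which left 14324 genes, and normalized with TMM factors. edgeR's quasi-likelihood test, two-sided, was fitted to all 6 libraries with no covariate and adjusted by Benjamini-Hochberg over all tested genes at 0.05. Nlrp3 and Il1b, below the filter, were taken from the same fit with every gene that had at least 1 read. The test was also run on simulated data with the same spread for every gene. Changes were put only into genes with more reads than Nlrp3, Il1b, Pycard, Gsdmd and Casp1, so the simulation does not cover these members. Intervals are 95% intervals. CPM use scaled library sizes.

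The members and lists were chosen with earlier results of these data known. The text names all members and, of each list, genes past the threshold or else the 2 most abundant and up to 2 with the smallest unadjusted p under 0.05, beside exceptions that are marked. Likeness is Pearson's r of log2 CPM. Alternatives were no filter, at least 1 CPM in 3 libraries, RLE size factors, DESeq2 1.42.0, limma-voom (limma 3.58.1), the replicate number, the library sets, and leaving out each library. Exon and coding lengths are unions over protein-coding transcripts of GENCODE M21; positions and promoters are from RefSeq.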

Additional observations from a re-analysis of the deposited data

How the results depend on the processing

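The number of members past the threshold was 0 under each of the 13 alternatives run (the filters, RLE size factors, DESeq2, limma-voom, the replicate block, the library sets and each library left out), and so was that of the other pathway genes. Over all tested genes the count was 3 in the fit reported, 72 (0.499%) without AAV-GFP replicate 3, 10 by DESeq2, 9 with the library sets and 2 to 5 under the other alternatives. With the replicate number as a block the count was 0 for both and Il1r1 was at -0.38 ± 0.18 (SE). Same-numbered libraries of the groups correlated in their deviations at 0.104, -0.121 and 0.0652, so the numbers were not read as pairs. Of 126 single values of members, 111 kept their direction, 15 changed sign and 0 passed; none of the 15 had been past the threshold. With the library sets as a term, Nek7 was at 0.15 and Casp1 at 0.05, and Il1b was at 1.97 ± 1.10 (SE) against the 1 read of AAV-GFP replicate 3. By limma-voom Nlrp3 was at 0.05. With 1 library left out, log2 fold changes ran from -0.35 to 0.50 for Nlrp3, -0.34 to 0.09 for Pycard, -0.11 to 0.05 for Nek7, -0.19 to 0.07 for Txnip, -0.27 to 0.47 for Il1b and -0.03 to 0.06 for Il1rap. Those of Casp1 (-0.29 to -0.03), Il18 (-0.12 to -0.01), Gsdmd (0.01 to 0.39) and Il1r1 (-0.59 to -0.24) kept their sign. Without AAV-GFP replicate 3, Nlrp3 was highest and changed sign, and so did Pycard, Txnip, Il1b and, at -0.0037, Il1rap. Without that library 20 of the 82 other pathway genes had an unadjusted p under 0.05 by edgeR, beside 19.8% of all tested genes. The cause of these shifts was not tested. Il1b, Nlrp3, Pycard and Gsdmd, with 24 to 149 reads in all libraries, had the fewest reads and the widest intervals of the members.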

Other observations

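Pathway genes below the expression filter numbered 26, with 0 to 53 reads over the 6 libraries. Selp, with 0 reads in every library, could not be fitted. Of the rest, fitted with no filter by edgeR, 0 passed and 3 had an unadjusted p under 0.05, beside 5.97% of all genes so fitted. The genes named here were chosen after their values were seen. Il1r2, which encodes a decoy receptor that binds interleukin-1 without signalling, drew 2, 2 and 0 reads in the poly-GA libraries and 7, 6 and 5 in the controls. The groups did not overlap, with a log2 fold change of -2.12 ± 0.79 (SE), and edgeR p-values of 0.0146 unadjusted and 0.804 adjusted. Below the filter the groups also did not overlap for Casp4, Nlrp12, Tnf and Cxcl2, lower with poly-GA, and Nlrp1a, higher. The share over all genes below the filter was not counted. Casp4, the caspase of the non-canonical inflammasome, drew 4, 3 and 5 reads, and 6, 8 and 12 in the controls, for a log2 fold change of -1.14 ± 0.52 (SE) with an adjusted p of 0.822 by edgeR. The third was Nlrp12, with 0 reads in each AAV-GFP-GA library and 2 in each AAV-GFP library. Il1a, the sister cytokine of Il1b, drew 10, 7 and 6 reads, and 6, 10 and 7 in the controls. Il1rn, the receptor antagonist, had 0 reads with poly-GA and 0, 2 and 1 without.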
